A study of Mus musculus with 8 samples.

Results

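The fragments described here are the short 3′ fragments of transfer RNA (tRNA), those of 16 to 19 nt, in β-cells of diabetic db/db mice and of wild type mice. They were taken from the deposited table as every sequence that ends in CCA and is 16 to 19 nt long, whatever its level, which gave 247 of 2226 sequences. Of these, 67 were 16 nt, 65 were 17 nt, 63 were 18 nt and 52 were 19 nt. They were filed under 44 of the 48 tRNA names of the table, and 38 names had all 4 lengths. All sequences that end in CCA numbered 957, and their longest length in the table was 30 nt.

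The 8 small RNA libraries were made from β-cells sorted from pancreatic islets by autofluorescence, 4 libraries from each genotype. The wild type mice were BKS.Cg-Dock7m+/+ and the db/db mice BKS.Cg-Dock7m+/+LeprdbJ, all male and 8 weeks old, and no treatment is named for either. The db allele disrupts the leptin receptor in the whole body, so that these animals overeat and are obese and hyperglycaemic. Each preparation pooled islets of several mice. The study describes replicates of primary cells as preparations from different animals, and the labels name no preparation day or batch. The table holds tRNA fragments only, so the label β-cell could not be checked against marker genes.

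Mature tRNAs end in CCA, which is not encoded in the gene but added by an enzyme, CCA-adding tRNA nucleotidyltransferase, and the amino acid is attached to its last A. A fragment of this kind is what is left of the 3′ side when a tRNA is cut in the T loop, the loop nearest to the 3′ end, and it is known as tRF-3a. Such fragments resemble microRNAs in length, can be bound by Argonaute proteins, and have been linked to silencing of mRNAs and of endogenous retroviruses. In the standard numbering of a tRNA of 76 positions, a fragment of 16 nt starts at position 61, the first base of the T stem's 3′ strand, and those of 17, 18 and 19 nt start at positions 60, 59 and 58 inside the T loop. Position 58 is an adenosine that carries a methyl group (m1A58) in many tRNAs.

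The ladder of the tRNA for tryptophan, Trp-CCA, shows the 4 lengths with the T loop bases in capitals and the T stem, acceptor stem and CCA in lower case. It is printed because it includes the most abundant fragment of 18 nt and because the T loop of this tRNA exists in 2 versions.

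Trp-CCA 16 nt: cacgtcggggtcacca
Trp-CCA 17 nt: Tcacgtcggggtcacca
Trp-CCA 18 nt, first version: GTcacgtcggggtcacca
Trp-CCA 18 nt, second version: ATcacgtcggggtcacca
Trp-CCA 19 nt, first version: AGTcacgtcggggtcacca
Trp-CCA 19 nt, second version: AATcacgtcggggtcacca

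The other most abundant fragments of one length were the 16 nt and 17 nt fragments of Lys-CTT and the 19 nt fragment of Gly-ACC.

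Lys-CTT 16 nt: cccacgttgggcgcca
Lys-CTT 17 nt: Ccccacgttgggcgcca
Gly-ACC 19 nt: AAAccgggcggaaacacca

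The authors' build was GRCm38.p6, and for it RefSeq lists 366 tRNA genes under 41 of the 44 names. Lys-CTT has 24 genes on 12 chromosomes and Trp-CCA 8 genes on 3, so most fragments cannot be placed at one locus. Of the names with 1 gene, Gly-ACC is at chr11:48823728-48823801 (n-TGacc1) and Ile-TAT at chr13:21896938-21897031 (n-TItat14), both tRNA genes whose RNA is not translated.

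The RefSeq entries of 3 microRNAs hold the gene-encoded part of a fragment (its bases without CCA), and are printed with the fragments because the letters that follow the match in the microRNA genes are not CCA. In the fragments CCA is in capitals, and in the microRNAs the seed (bases 2 to 8).

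Ile-TAT 16 nt: ctcacctggagcaCCA
mmu-miR-1983: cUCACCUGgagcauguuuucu
Leu-CAA 17 nt: tcccacttctgacaCCA
mmu-miR-3963: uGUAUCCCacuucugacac
Thr-AGT 19 nt: aatcccagcggtgcctCCA
mmu-miR-5100: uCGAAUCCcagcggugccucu

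The 16 nt fragment of Ile-TAT and mmu-miR-1983 (chr13:21896930-21896950, minus strand) begin at the same base and share their first 13 bases. The 21 bases of mmu-miR-1983 then run on into the genomic sequence past the tRNA. In mmu-miR-3963 (chr3:151023839-151023857, minus strand) and mmu-miR-5100 (chr11:60728698-60728718, plus strand) the shared bases began at position 4, with the Leu-CAA fragment of 18 nt in the first and the Thr-AGT fragment of 19 nt in the second. The 16 nt Ile-TAT fragment was at 426 CPM in wild type and 478 CPM in db/db on average and was not called (log2 fold change 0.17, SE 0.37, edgeR, adjusted p = 0.828).

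The first question was how large the short fraction was and how its lengths were distributed. Where 4 values are given for a genotype, they are those of its libraries 1 to 4 in order. Counts are reads collapsed by unique molecular identifier, and a library held 104719 to 631351 counts of short fragments out of 582165 to 2946290 tRNA fragment counts. Of the counts that ended in CCA, short fragments made up 20.1, 18.6, 19 and 16% in wild type and 24.9, 19.1, 22.3 and 18.9% in db/db. The wild type mean was 18.4% ± 1.73 and the db/db mean 21.3% ± 2.83 (SD, n = 4), and the groups overlapped. Over all libraries the 24 to 30 nt fragments took 65.1% to 76.8% of the same counts.

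Most short fragments started at the last base of the T loop or just after it. Fragments of 16 nt were 39.3% ± 3.67 of short counts in wild type and 41.1% ± 1.91 in db/db. Those of 17 nt were 38.6% ± 0.496 and 38.7% ± 1.48. Fragments of 18 nt were rarer, at 14.4% ± 1.22 and 13.8% ± 0.986, and those of 19 nt rarest, at 7.63% ± 2.11 and 6.47% ± 1.1 (SD, n = 4 each). All 4 lengths overlapped between the genotypes. In counts that end in CCA, 19 nt and 20 nt lay in a trough, with 1.38% and 1.36% in wild type against 2.89% at 21 nt. Reads shorter than 16 nt are not in the table, so that a maximum below 16 nt could not be seen.

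The bases at the cut followed the tRNA numbering. All 67 fragments of 16 nt started with C, the base at position 61 that pairs across the T stem in nearly all tRNAs. Of the 52 fragments of 19 nt, 51 started with A, the base at position 58, and the exception was the selenocysteine tRNA SeC-TCA, which started with T in this window. Position 60 was less uniform. Among 65 fragments of 17 nt, 39 started with T, 21 with C, 3 with A and 2 with G. By counts, T led 63.2% and C 33.7% of the 17 nt fragments, averaged over the 8 libraries. At position 59, 29 of 63 fragments of 18 nt started with A, 16 with T, 14 with G and 4 with C.

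The last 16 bases of a fragment define a 3′ end of a tRNA, and the 247 fragments came from 72 such ends. All 4 lengths were present for 48 ends. The most abundant length was 16 nt for 39 ends, 17 nt for 28, 18 nt for 5 and 19 nt for 0. The base before CCA, known as the discriminator base, was A in 34 ends, G in 28, T in 8 and C in 2.

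A few tRNAs supplied most of the short fragments. CPM are counts of a fragment in 1000000 tRNA fragment counts, after scaling by the trimmed mean of M-values (TMM). Summed over their members, Ser-GCT took 13.6% of the short CPM, Lys-CTT 13.3%, Trp-CCA 11.8%, Pro-AGG 8.64% and Gly-CCC 6.3%. With Arg-TCT, Gly-ACC, Asp-GTC, Ser-CGA and Lys-TTT these 10 names made up 73.0%. The 10 most abundant fragments, all of 16 nt or 17 nt, were 38.7% to 47.8% of short counts.

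The most abundant was the 17 nt fragment of Lys-CTT, at 19269.9, 8589.6, 13485 and 9969 CPM in wild type and 11164, 13818, 21019.9 and 13161 CPM in db/db. Its highest libraries were db/db 3 and wild type 1, and the genotypes overlapped (log2 fold change 0.21, SE 0.35, edgeR, adjusted p = 0.785). The 16 nt fragment of the same tRNA was at 13788, 6807, 10054 and 6961 CPM in wild type and 9891, 10055, 19049.7 and 10393 CPM in db/db. It too overlapped between the genotypes (log2 fold change 0.39, SE 0.36, edgeR, adjusted p = 0.58).

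Ser-GCT followed, with a 17 nt fragment at 12186, 8848, 11528 and 11361 CPM in wild type and 13459, 14462, 10804 and 9701 CPM in db/db. Its genotypes overlapped (log2 fold change 0.14, SE 0.32, edgeR, adjusted p = 0.836). The Pro-AGG fragment of 17 nt was at 11202, 7692, 10979 and 4280.1 CPM in wild type and 3039.8, 11049, 11051 and 3322 CPM in db/db. Wild type 4, db/db 1 and db/db 4 were its low libraries, and the genotypes overlapped (log2 fold change −0.26, SE 0.43, edgeR, adjusted p = 0.774). The remaining 6 of the 10 were the 16 nt fragments of Ser-GCT, Pro-AGG, Trp-CCA, Asp-GTC and Asn-GTT and the 17 nt fragment of Trp-CCA, with log2 fold changes of −0.41 to 0.44. None of the 10 was called.

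The most abundant fragments of 18 nt and 19 nt did not differ beyond the spread either. Trp-CCA of 18 nt (first version) was at 5749, 2522, 2998 and 2042 CPM in wild type and 2413, 2083, 5656 and 2136 CPM in db/db (log2 fold change −0.11, SE 0.40, edgeR, adjusted p = 0.893). Gly-ACC of 19 nt was at 1701, 2709.8, 1856 and 2057 CPM in wild type and 2572, 1386, 1936 and 1624 CPM in db/db (log2 fold change −0.15, SE 0.33, edgeR, adjusted p = 0.836). The groups of both overlapped.

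The second question was which short fragments differed between db/db and wild type β-cells. Fragments of a few 3′ ends were higher in db/db, and none of the 10 most abundant fragments passed the test. All sequences of the table were tested together with edgeR's quasi-likelihood test, and a call needed a Benjamini-Hochberg adjusted p below 0.1 and a fold change above 2. Of the 247 short fragments 222 passed the filter on low counts. The other 25 had 64 to 141 counts over the 8 libraries and were not tested. In db/db, 27 of 222 were called higher (12.2%) and 0 lower. Of all 1832 sequences tested, 5.57% were called higher and 9.44% lower. The table holds sequences with 5 or more counts in at least 4 libraries, and 8 of the 27 did not reach 5 in every wild type library, so that they needed db/db libraries to be in it. These are the 17, 18 and 19 nt fragments of Ala-AGC end 4, the 17 nt fragment of Ala-AGC end 5, the 19 nt fragments of Arg-TCT end 3 and Gly-GCC, the 18 nt fragment of Leu-AAG end 2 and the 16 nt fragment of Arg-ACG, and their calls are no support by themselves. Among the 204 tested short fragments with 5 or more counts in all 8 libraries, 19 were called higher (9.31%) and 0 lower, against 4.58% and 6.04% of all tested sequences with such counts. The filter on low counts asked for the equivalent of 10 counts at the median depth in 4 libraries. A fragment low in wild type could therefore pass it through db/db alone, and how many of the 19 did so was not counted. At an unadjusted p below 0.05, 30 short fragments were higher and 0 lower in edgeR, against 8.84% and 12.4% of all sequences, and DESeq2 called 27 higher and 0 lower.

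The genotypes did not overlap for 30 of the 222, 28 of them higher in db/db. Of all 1832 sequences tested they did not overlap for 314 (17.1%), 128 of them higher and 186 lower. A lack of overlap was thus no more common among the short fragments. Among the 27 called, 25 did not overlap. The median log2 fold change was 0.15 over the short fragments and 0.00 over all sequences. The calls were 9 of 63 tested at 16 nt, 9 of 61 at 17 nt, 6 of 52 at 18 nt and 3 of 46 at 19 nt. Among longer CCA-ended fragments 12 of 221 of 20 to 23 nt were higher and 0 lower, and of 451 fragments of 24 to 30 nt 29 were higher and 4 lower. The 27 made up 0.575% ± 0.116 of short counts in wild type and 1.81% ± 0.305 in db/db (SD, n = 4), values which the choice of these fragments fixes.

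The number of calls depended on the library scaling. With libraries scaled to the totals of all their small RNA counts, as implied by the deposited RPM values, 16 of the 27 were called and the median of all sequences moved to −0.36. With the library sizes that the authors' log2 values imply, 3 were called and that median moved to −0.51. All 3 are among the 8 that did not reach 5 counts in every wild type library. The median of the short fragments was then −0.18 and −0.23, still above that of all sequences, so that its sign depends on the scaling. Among all calls 37.1% were higher with TMM, 22.9% with the implied totals and 8.59% with the authors' sizes. No short fragment was called lower with any of these scalings.

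The called fragments came from 11 of the 72 ends and 8 tRNA names, namely Ala-AGC, Arg-TCT, Gly-GCC, Ser-GCT, Leu-AAG, Met-CAT, Arg-TCG and Arg-ACG. A tRNA name covers several genes, whose products (isodecoders) share the anticodon and can differ elsewhere. The ends of 7 of these names are printed with the bases that differ among ends of the same name in capitals, since the calls separate along these bases. They are numbered from the most to the least abundant.

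Ala-AGC end 1: cccGCATCctccacca
Ala-AGC end 2: cccGGCACctccacca
Ala-AGC end 3: cccGCATTctccacca
Ala-AGC end 4: cccAGCATctccacca
Ala-AGC end 5: cccAGCACctccacca
Arg-TCT end 1: cccGGcGgagTCgcca
Arg-TCT end 2: cccACcAgagTCgcca
Arg-TCT end 3: cccGCcAgagTCgcca
Arg-TCT end 4: cccGGcAgagATgcca
Ser-GCT end 1: cccaTcCtcGtcgcca
Ser-GCT end 2: cccaCcTtcGtcgcca
Ser-GCT end 3: cccaTcCtcAtcgcca
Met-CAT end 1: ctcaGaGGggGcacca
Met-CAT end 2: ctcaGaGAggGcacca
Met-CAT end 3: ctcaCaCGggGcacca
Met-CAT end 4: ctcaGaGGggTcacca
Leu-AAG end 1: cccaccGctgccacca
Leu-AAG end 2: cccaccActgccacca
Arg-TCG end 1: ccTGCcgCggtCGcca
Arg-TCG end 2: ccCTTcgTggtTGcca
Arg-TCG end 3: ccCTTcgTggtTAcca
Gly-GCC end 1: cccggcccatgcacca

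Counts were therefore also summed over the 4 lengths for each end and tested together with the sums of longer fragments with the same ends, a grouping chosen after the calls had been seen. Of 69 ends tested 10 passed the limits, all higher in db/db, but 1 of them, Ala-AGC end 5, is in the table through db/db only. Of the 68 ends with 5 or more counts in every library, 9 were called higher and 0 lower. Over all 237 sums tested 25 (10.5%) were called higher, and over the 189 CCA-ended sums with 5 or more counts in every library 21 (11.1%). The shares among short ends were close to these, so that calls of ends were not particular to the short fragments. By mean level the 10 ends ranked from 32 (682 CPM, Ala-AGC end 2) to 71 (8.09 CPM, Ala-AGC end 5) among the 72 ends. Of the 68 ends, edgeR called 6 higher with the implied totals and 0 with the authors' library sizes, where 5 were higher and 0 lower at an unadjusted p below 0.05.

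Alanine tRNA Ala-AGC (13 genes on 5 chromosomes) had 5 ends, of which ends 2 and 4 were called. End 4 was at 27.3, 27.3, 32.5 and 25.5 CPM in wild type and 195, 127, 139 and 112 CPM in db/db. The db/db libraries all lay above the wild type libraries (log2 fold change 2.36, SE 0.29, edgeR, adjusted p = 3.05e-05), and its 16 nt fragment was called. Its 17, 18 and 19 nt fragments passed the limits too, but needed db/db libraries to be in the table. On average over the libraries they were 34.1, 26.4 and 12% of the short counts of the end. The call of the end therefore rests mostly on fragments that needed db/db libraries. The 19 nt fragment was at 3.56, 2.71, 0 and 3.09 CPM in wild type and 29, 18, 29.9 and 14.2 CPM in db/db. No wild type library held 5 counts of it, so its values are a description.

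End 5 was seen as a 17 nt fragment only. It had 0, 0, 0 and 2 counts in wild type libraries 1 to 4 and 19, 8, 45 and 14 counts in db/db libraries 1 to 4. It too is in the table through db/db only, so that a difference was bound to be seen and its call is no support. Without db/db 1, 3 or 4 it fell below the filter on low counts and was not tested.

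End 2 was at 395, 238, 472 and 647 CPM in wild type and 1052, 829.6, 973 and 852 CPM in db/db (log2 fold change 1.08, SE 0.29, edgeR, adjusted p = 0.0146). It was not called without wild type 2 (log2 fold change 0.87) or without db/db 1 (0.93), nor was its 18 nt fragment, and its 17 nt fragment was not called without wild type 2. The end was not called with TMM factors from CCA-ended sequences, the implied totals or the authors' library sizes. The genotypes did not overlap, and its 16, 17 and 18 nt fragments were called, but these bases also end longer fragments filed under Ala-TGC, so the tRNA behind it is uncertain. End 1, the most abundant, was at 804, 648, 673 and 1004 CPM in wild type and 623, 632, 991 and 672 CPM in db/db. Its groups overlapped (log2 fold change −0.10, SE 0.25, edgeR, adjusted p = 0.828). End 3 was above the wild type range in every db/db library (log2 fold change 0.70, SE 0.24, edgeR, adjusted p = 0.0616), but its change was under 2-fold.

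Within the short fragments of Ala-AGC, end 1 thus took 58.5, 63.3, 51.4 and 54.9% in wild type and 29.2, 35.4, 41.9 and 36.4% in db/db. End 2 took 28.7, 23.2, 36.1 and 35.4% in wild type and 49.3, 46.4, 41.1 and 46.2% in db/db. A share within one name does not depend on the scaling of libraries. The order of the most abundant ends was end 1 before end 2 in all 4 wild type libraries, and end 2 before end 1 in db/db libraries 1, 2 and 4, with end 1 at 41.9% and end 2 at 41.1% in db/db 3.

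Arginine tRNA Arg-TCT (5 genes on 5 chromosomes) had 4 ends. End 3 was at 120.3, 53.3, 115 and 55.8 CPM in wild type and 399, 711, 476 and 242 CPM in db/db. All db/db libraries were higher (log2 fold change 2.43, SE 0.37, edgeR, adjusted p = 0.000214), and its fragments of 16, 17 and 18 nt were called. That of 19 nt passed the limits as well, but needed db/db libraries to be in the table. Ends 1 and 2, which held most Arg-TCT counts, had log2 fold changes of 0.31 and 0.32 and were not called. One 18 nt fragment with end 2 was called although its groups overlapped, at 96.1, 33.8, 57.1 and 78.8 CPM in wild type and 177, 200.3, 185 and 90.6 CPM in db/db (log2 fold change 1.29, SE 0.40, edgeR, adjusted p = 0.0286). It was not called without wild type 2 (log2 fold change 1.06, adjusted p = 0.119).

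Serine tRNA Ser-GCT (8 genes on 5 chromosomes) had 3 ends, of which the rarer end 2 rose. End 2 was at 59.3, 40.3, 72.6 and 64.6 CPM in wild type and 312, 349, 213 and 199 CPM in db/db (log2 fold change 2.18, SE 0.29, edgeR, adjusted p = 6.88e-05). The db/db libraries were higher without overlap. End 1 was at 27276, 17629, 28965 and 23458 CPM in wild type and 25722, 29978, 23828 and 21794 CPM in db/db (log2 fold change 0.06, SE 0.25, edgeR, adjusted p = 0.882). Its groups overlapped, and end 2 was 0.242% ± 0.0254 of the short Ser-GCT counts in wild type and 1.03% ± 0.164 in db/db (SD, n = 4).

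Methionine tRNA Met-CAT is the elongator, and the initiator is filed separately as iMet-CAT. Its end 2 was at 271, 191, 256 and 148 CPM in wild type and 703, 514, 986 and 681 CPM in db/db (log2 fold change 1.74, SE 0.28, edgeR, adjusted p = 0.000286). The groups did not overlap, and the 16 nt and 17 nt fragments were called. End 1 was not (log2 fold change 0.25, SE 0.26, edgeR, adjusted p = 0.568). Of the short Met-CAT counts, end 2 made up 8.28% ± 1.47 in wild type and 20.8% ± 1.3 in db/db, while end 3 took 16.3% ± 3.23 and 11% ± 0.615 (SD, n = 4).

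Leucine tRNA Leu-AAG had 2 ends, which differ at 1 base. End 2 was at 75.4, 48.1, 70.7 and 136 CPM in wild type and 291, 353, 329 and 195 CPM in db/db (log2 fold change 1.80, SE 0.33, edgeR, adjusted p = 0.000802). The groups did not overlap, whereas those of end 1 did (log2 fold change 0.19, adjusted p = 0.753 in edgeR). The 16 nt and 17 nt fragments of end 2 were called. Its 18 nt fragment, which needed db/db libraries to be in the table, passed the limits with overlap, with wild type 4 at 26.3 CPM and db/db 4 at 24.9 CPM.

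Arginine tRNA Arg-TCG had 3 ends. End 2 was at 40.1, 89.6, 40.1 and 43.8 CPM in wild type and 214, 149.7, 99.2 and 144 CPM in db/db (log2 fold change 1.49, SE 0.34, edgeR, adjusted p = 0.00576), and the groups did not overlap. The end was not called with the implied totals or the authors' library sizes, and its 16 nt fragment lost its call without wild type 1 or 4 or db/db 1 (edgeR, adjusted p from 0.128 to 0.199). Arg-ACG had an end cctacctggctcgcca at 28.9, 42.9, 28.7 and 53.4 CPM in wild type and 79.9, 53.6, 84.7 and 96.8 CPM in db/db (log2 fold change 1.01, SE 0.31, edgeR, adjusted p = 0.0339). The highest wild type and the lowest db/db library differed by less than 1 CPM. Of its fragments that of 16 nt, which needed db/db libraries to be in the table, was called, and this call was lost without wild type 1, 2 or 3 or db/db 1 or 4 (edgeR, adjusted p from 0.117 to 0.191). The call of the end was lost without wild type 1 or 3 or db/db 1, 3 or 4, and with DESeq2, RLE factors, TMM factors from CCA-ended sequences, the implied totals and the authors' library sizes.

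Glycine tRNA Gly-GCC (14 genes on 7 chromosomes) was filed with 1 short end. It was at 77, 52, 124 and 112 CPM in wild type and 677, 334, 332 and 361 CPM in db/db (log2 fold change 2.23, SE 0.33, edgeR, adjusted p = 0.000177). The db/db libraries were all higher, db/db 1 most of all, and the fragments of 16, 17 and 18 nt were called, while that of 19 nt passed the limits but needed db/db libraries to be in the table. A second end, printed as Gly-CCC end 2, was filed under Gly-CCC but also ends longer fragments filed under Gly-GCC.

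Gly-CCC end 1: cccggGcGGCgcacca
Gly-CCC end 2: cccggCcAATgcacca

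Gly-CCC end 2 was at 1389, 740.5, 1560.0 and 1797 CPM in wild type and 2857, 1707, 1452 and 1775 CPM in db/db. Its groups overlapped (log2 fold change 0.51, SE 0.31, edgeR, adjusted p = 0.332). The call for Gly-GCC therefore covers only the rarer of the ends that this tRNA may have. Gly-CCC end 1 was not called either (log2 fold change −0.44, edgeR, adjusted p = 0.441).

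How many of the longer fragments with a called end were called higher differed between the ends. Of the fragments of 20 to 30 nt tested, 11 of 11 were called higher for Gly-GCC, 3 of 3 for Arg-TCT end 3, 3 of 3 for Ala-AGC end 4 and 6 of 7 for Leu-AAG end 2. The count was 3 of 6 for Met-CAT end 2, 4 of 12 for Ala-AGC end 2, 2 of 6 for Arg-TCG end 2 and 1 of 4 for the Arg-ACG end, and for Ser-GCT end 2 and Ala-AGC end 5 there was none to test. None of these was called lower. Among all CCA-ended fragments tested, 5.43% of those of 20 to 23 nt and 6.43% of those of 24 to 30 nt were called higher. The longer fragments were not screened for 5 counts in every wild type library, so some may be in the table through db/db. In wild type the sums of Ala-AGC end 4 averaged only 2.2 CPM at 20 to 23 nt and 13.8 CPM at 24 to 30 nt. The counts of longer fragments are therefore a description and no support for the calls of the ends.

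Whether the ends of one name were exchanged for each other was examined as the share of each end within its name, over the 47 ends of the 19 names with more than 1 end. For 18 ends (38.3%) the genotypes did not overlap, 10 of them higher in db/db and 8 lower. Ala-AGC end 5 is counted in the 47 and among the 10 higher. It is in the table through db/db only, so that its share was bound to differ and is no support. Each of the 18 had the smallest p the 70 assignments of the libraries allow (exact permutation test, two-sided, p = 0.0286). After adjustment over the 47 ends each of the 18 had p = 0.0746 (exact permutation test), so that 0 passed 0.05, the limit used for shares, and 18 passed 0.1, the limit used for the edgeR calls. At least 27 ends would have had to reach the smallest p for any to pass 0.05. The shares of one name add up to 100%, and those of a name with 2 ends mirror each other. Arg-CCG is a case where neither end overlapped. The end cccttcgtggtcgcca took 51.7, 54, 39.3 and 48.5% in wild type and 66.6, 67.9, 64.2 and 62% in db/db of the short counts of this name. The order of its 2 ends was not the same in all wild type libraries, and in db/db this end led in all 4.

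Summed over all short fragments of a tRNA name, only Gly-GCC was called. Its sum was 75.1, 50.5, 123 and 113 CPM in wild type and 687, 326, 344 and 372 CPM in db/db (log2 fold change 2.26, SE 0.34, edgeR, adjusted p = 0.000333). The sums of 20 to 23 nt and of 24 to 30 nt with the same name had log2 fold changes of 2.40 (SE 0.28) and 1.98 (SE 0.34), and the difference between classes was not tested. With the authors' library sizes the short sum was at 1.87 and not called (edgeR, adjusted p = 0.243). Of all 172 sums by name and class, 2.33% were called higher and 6.4% lower.

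The other 43 names had log2 fold changes between −0.59 and 0.81, and 33 of the 44 were above 0. The median was 0.19, against −0.03 over all 172 sums. The lowest was Pro-TGG and the highest Val-AAC, both low in counts. Among the most abundant names, Ser-GCT was at 0.10, Lys-CTT at 0.31, Trp-CCA at 0.33, Pro-AGG at −0.32 and Gly-CCC at −0.26. Glu-CTC and Asp-GTC were not called, with Glu-CTC at 279 ± 38.8 CPM in wild type and 239.6 ± 80.4 CPM in db/db and Asp-GTC at 6843 ± 1103 and 7245 ± 366 CPM (SD, n = 4).

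The third question was whether a tRNA gave more of its 3′ fragments as short ones in db/db. The short share of CCA-ended counts differed widely between tRNAs. Over the 40 names with at least 100 CCA-ended counts in every library it ranged from 1.59% to 81.7%, with a median of 28.3%. The highest was Lys-CTT, at 77.7% ± 10.1 in wild type and 85.7% ± 4.46 in db/db. Asn-GTT (65% ± 17.3 and 75.3% ± 3.85) and Ser-CGA (67.9% ± 7.19 and 72.3% ± 3.56) came next, then Leu-CAA and Ser-GCT, and the ranges of these neighbours overlapped.

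The lowest was Asp-GTC, at 1.46% ± 0.243 in wild type and 1.72% ± 0.492 in db/db, followed by Val-TAC, Arg-CCT, Glu-CTC and Arg-CCG. Asp-GTC held the most CCA-ended counts of any name, at least 266400 in each library, nearly all of 24 to 30 nt. Gly-GCC was at 25.6% ± 5.25 and 26.9% ± 3.82 (SD, n = 4), with overlap.

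Of the 40 names 0 passed an adjusted p of 0.05 (exact permutation test, percentage of names called 0), and the lowest adjusted p was 0.381. With this design an adjusted p under 0.05 needs at least 23 of the 40 names at the smallest p, so that the count of 0 does not show that the shares were alike. For 3 names, 7.5% of those tested, the genotypes did not overlap, and all 3 were higher in db/db at the smallest p the design allows (exact permutation test, p = 0.0286). Trp-CCA was at 31.3, 30.6, 32.2 and 29.8% in wild type and 40.2, 33.1, 35.3 and 35.2% in db/db. Lys-TTT was at 29.8, 27.5, 32.5 and 18.8% in wild type and 35.1, 37.8, 35.1 and 33.4% in db/db. Arg-TCG was at 6.7, 9.89, 10.1 and 8.47% in wild type and 16, 11.3, 10.3 and 12.5% in db/db. The difference of the means was 4.98, 8.18 and 3.73 percentage points, and 29 of the 40 names were higher in db/db.

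The last question was whether the short fragments keep their CCA. A fragment that lacks the last A has the same start and ends in CC. Such partners, 1 base shorter, were in the table for 35 of the 180 short fragments of 17 to 19 nt, from 17 names. They are no members themselves, and that fragments short of CCA are lower in db/db in the whole table was known when this was examined. A pair is shown for tyrosine tRNA, with the A that the partner lacks in capitals.

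Tyr-GTA 17 nt: tccggctcgaaggaccA
Tyr-GTA 16 nt partner: tccggctcgaaggacc

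Sequences in the table reach 5 counts in 4 or more libraries. All 35 partners met this in the wild type libraries by themselves, and 17 of them also held 5 or more counts in every db/db library. The other 18 entered through wild type, where they are higher, so only the 17 pairs, from 11 names, were tested.

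In all 17 pairs the partner's share of the pair was lower in db/db, without overlap. Each had an adjusted p of 0.0286 (exact permutation test, two-sided, adjusted over the 17 pairs), the smallest the design allows, so that 100% were called. Pooled over the 17 pairs, partners took 14.8, 23.4, 15.3 and 12.6% in wild type and 1.36, 1.71, 1.52 and 1.84% in db/db. Every wild type library lay above every db/db library, with wild type 2 the highest. The difference of the means (db/db minus wild type) was −14.9 percentage points in the 17 pairs. Single libraries were left out only in the set of all 35 pairs, where the difference was −14.7, or −12.5 without wild type 2. That set includes the partners that entered through wild type, so its values are a description. How far the difference in the 17 pairs depends on a single library was not tested.

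In the Tyr-GTA pair the partner took 43.7, 52.2, 42 and 38.7% in wild type and 4.46, 4.76, 6.5 and 9.68% in db/db. For the most abundant fragment, Lys-CTT of 17 nt, it took 9.06, 14.2, 8.3 and 6.38% in wild type and 0.994, 1.01, 0.844 and 1.02% in db/db. Both are among the 17 pairs, and the wild type libraries of each lay above the db/db libraries. The mean share of a pair ranged from 9.48% to 44.2% in wild type (median 18.6%) and from 0.967% to 6.35% in db/db (median 1.96%).

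The complete fragments of the 17 pairs had log2 fold changes with a median of 0.15. Their 17 partners were all called lower in edgeR, with a median of −3.47, against 18% of the 938 tested sequences without CCA and 9.44% of all sequences. The sequences without CCA include fragments from other parts of a tRNA, so they are not a like set. The filter on low counts could be passed through wild type alone, where the partners are higher, so these edgeR calls are a description. The Met-CAT fragment of 17 nt with end 2, the only complete fragment of the 35 that was called higher, is not among the 17. Partners that are low in every library are not analysed here.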

How the data were processed

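β-cells were sorted by flow cytometry, with the islets of several mice in each preparation. RNA came from the miRNeasy micro kit, and the QIAseq miRNA kit gave libraries with unique molecular identifiers. The authors collapsed reads longer than 16 nt by sequence and identifier (the table nevertheless holds fragments of 16 nt), aligned them to GRCm38.p6, and kept perfect bowtie matches to mature cytosolic or mitochondrial tRNAs. For each sequence the authors' deposited table holds a count of unique molecules per library. It also holds the authors' RPM, rounded to whole numbers and read here as a score, and a deposited log2 value whose normalisation is not described. A direction of change in words was not used. Only counts were tested, and RPM and log2 values served to compute alternative library sizes. The 2226 sequences all reach 5 counts in 4 or more libraries.

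Columns were assigned to genotypes by library name, and replicate numbers follow sample order. The test was edgeR 4.0.16 (R 4.3.3) on all 8 libraries and the whole table, with genotype alone in the model, TMM factors from tRNA fragment counts, and filterByExpr (min.count 10, min.total.count 15). Benjamini-Hochberg adjustment ran over everything tested in a fit. SE is the absolute log2 fold change over the square root of F. DESeq2 1.42.0 was an alternative. Sums by name used 4 classes, namely CCA-ended fragments of 16 to 19, 20 to 23 and 24 to 30 nt and fragments without CCA. Shares were compared by two-sided exact permutation tests, checked against scipy 1.17.1, and the edgeR script was tested on simulated data. In all, 12 members also end a longer sequence of another name. Replicates differed beyond counting noise (chi-square per degree of freedom of their counts 14.9 to 118.5), and each library was counted as 1 replicate. Intervals cover counting error only.

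The members, lists and tests were chosen with earlier results of these data known. The rule named the 10 most abundant fragments, the most abundant of each length, and the 5 largest increases and decreases among calls without overlap. Other called fragments were named after their values were seen. Among tRNA names it took the 10 most abundant, each one called, the 5 highest and 5 lowest short shares, and the names that the study gives (Glu-CTC, Gly-GCC, Asp-GTC). The 3′ end sums, the shares of ends, the pairs without the last A, the comparison with microRNAs, and the removal of db/db 3 with wild type 4 were added after seeing the data.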

Additional observations from a re-analysis of the deposited data

Results flagged for a closer look

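In 13 of 136 groups of 4 libraries examined for the fragments, sums and shares named here, 1 library lay far from the other 3 by Dixon's criterion at the 95% level. Chance gives about 1 in 20 groups, and fragments of the same tRNA are not independent.

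In db/db 3, the library with the most counts, 4 values stood apart. Lys-CTT of 16 nt (cccacgttgggcgcca) was at 19049.7 CPM in db/db 3, against 9891 to 10393 CPM in the other libraries of that genotype. Trp-CCA of 16 nt (cacgtcggggtcacca) was at 12720.1 CPM in db/db 3, against 5239.6 to 6293 CPM in the other libraries of that genotype. Trp-CCA of 18 nt (GTcacgtcggggtcacca) was at 5656 CPM in db/db 3, against 2083 to 2413 CPM in the other libraries of that genotype. The short sum of Ser-CGA was at 9173 CPM in db/db 3, against 4883 to 4928 CPM in the other libraries of that genotype. None of these fragments or sums was called with or without this library.

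In db/db 1, 5 values stood apart, most of them Gly-GCC. Gly-GCC of 18 nt (TTcccggcccatgcacca) was at 195 CPM in db/db 1, against 79.4 to 92.3 CPM in the other libraries of that genotype. Gly-GCC of 17 nt (Tcccggcccatgcacca) was at 119.8 CPM in db/db 1, against 57.8 to 63.1 CPM in the other libraries of that genotype. Gly-GCC of 19 nt (ATTcccggcccatgcacca) was at 104 CPM in db/db 1, against 37.9 to 47.1 CPM in the other libraries of that genotype. The short sum of Gly-GCC was at 687 CPM in db/db 1, against 326 to 372 CPM in the other libraries of that genotype. The short share of Asp-GTC was at 2.45% in db/db 1, against 1.41 to 1.57% in the other libraries of that genotype. The Gly-GCC sum was still called without db/db 1 (log2 fold change 1.94).

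The other groups were wild type. Asn-GTT of 16 nt (ccacccagggacgcca) was at 7041 CPM in wild type 1, against 2662 to 3406 CPM in the other libraries of that genotype. Ala-AGC of 17 nt (Ccccagcacctccacca) was at 1.54 CPM in wild type 4, against 0 CPM in the other libraries of that genotype. Ala-AGC of 17 nt (Ccccggcacctccacca) was at 86.6 CPM in wild type 2, against 149 to 161 CPM in the other libraries of that genotype. Leu-AAG of 17 nt (Tcccaccactgccacca) was at 44.8 CPM in wild type 4, against 23.5 to 24.9 CPM in the other libraries of that genotype.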

How the results depend on the processing

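The number of short fragments called, 27, was 25 to 27 with the other normalisations (RLE, none, TMM on CCA-ended sequences), DESeq2, other filters, an adjusted p of 0.05 and no fold limit, and 23 to 27 without single libraries. It was 16 with the implied totals and 3 with the authors' library sizes, all of them among the 27. With 5 or more counts asked for in every library, a choice made after seeing the data, it was 19. Without db/db 3 there was 1 call lower, Gly-CCC of 19 nt, and without db/db 3 and wild type 4 there were 30 calls, 4 of them lower. The 10 ends became 1 (Ala-AGC end 5) with the authors' library sizes, 7 with the implied totals, 9 with DESeq2, with RLE factors and with 5 or more counts in every library, 12 (1 of them lower) with no fold limit and 7 to 10 without single libraries, and TMM factors from CCA-ended sequences gave 8 higher and 1 lower. The call of the Gly-GCC sum held in all alternatives but the authors' library sizes, which left 0 sums called. The short share by name gave 0 calls in each alternative, a count that the smallest possible p nearly fixes. The differences of the pooled shares moved by less than 1 SD, although that of 17 nt changed sign. Leaving single libraries out was not run as a test of shares, since 4 against 3 libraries cannot go below 0.05. No paired analysis was possible because the replicate numbers only follow the order of the samples and no label ties a wild type library to a db/db one.

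Log2 fold changes near 0 changed sign, all of fragments or sums that were not called. Without db/db 3 and wild type 4 together (a choice made after seeing the data) they were −0.12 (Lys-CTT of 17 nt), −0.0225 (Lys-CTT of 16 nt), −0.20 (Ser-GCT of 16 nt), −0.10 (Trp-CCA of 17 nt), −0.10 (Trp-CCA of 16 nt), −0.0534 (Asp-GTC of 16 nt), −0.13 (Asn-GTT of 16 nt), −0.0331 (the Trp-CCA sum) and 0.0733 (the Glu-CTC sum). With the implied totals they were −0.19 (Ser-GCT of 17 nt), −0.16 (Ser-GCT of 16 nt), −0.21 (Asp-GTC of 16 nt), −0.14 (Asn-GTT of 16 nt), −0.20 (the Ser-GCT sum), −0.25 (the Gly-ACC sum), −0.26 (the Asp-GTC sum) and −0.15 (the Lys-TTT sum). With the authors' library sizes they were −0.34 (Ser-GCT of 17 nt), −0.21 (Ser-GCT of 16 nt), −0.34 (Asp-GTC of 16 nt), −0.23 (Asn-GTT of 16 nt), −0.31 (the Ser-GCT sum), −0.32 (the Gly-ACC sum), −0.38 (the Asp-GTC sum) and −0.16 (the Lys-TTT sum). With TMM factors from CCA-ended sequences they were −0.0844 (Ser-GCT of 16 nt), −0.0022 (Asp-GTC of 16 nt) and −0.0221 (the Gly-ACC sum). Trp-CCA of 18 nt was at 0.0018 with no normalisation factor and at 0.0001 with the filter of 10 counts in 4 libraries. Over single left-out libraries the ranges that crossed 0 were −0.10 to 0.38 (Ser-GCT of 16 nt), −0.49 to 0.11 (Pro-AGG of 17 nt), −0.53 to 0.36 (Trp-CCA of 18 nt), −0.32 to 0.0521 (Gly-ACC of 19 nt), −0.0283 to 0.24 (the Ser-GCT sum) and −0.41 to 0.0282 (the Glu-CTC sum). Depth left 25 fragments untested, and Ala-AGC end 5 was untested with the filter of 10 counts in 4 libraries and without db/db 1, 3 or 4.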
